A study of Homo sapiens with 6 samples.

Results

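The ELR-positive CXC chemokines CXCL1, CXCL2, CXCL3, CXCL5, CXCL6 and CXCL8 and their receptors CXCR1 and CXCR2 were followed in PC-3 tumors. These 8 genes were found by symbol among the 24000 gene entries of the deposited table, 1 entry each, with CXCL8 listed under its older symbol IL8. PC-3 cells come from a human prostate carcinoma and grow without androgens, and they carried a luciferase gene and were injected into the anterior prostate of male athymic nude mice obtained at 6 weeks of age. WCE, a standardized extract of the herb Wedelia chinensis, was given by mouth, and stranded mRNA libraries were sequenced from 3 individual tumors of WCE-treated and 3 of vehicle-treated mice. The labels give a treatment of 10 weeks for both groups and no dose. The study gives the dose and the course for such tumors in more than one way. Both groups share the cell line, the host strain and the implantation, and athymic mice lack mature T cells while their neutrophils and macrophages remain. The study asked which genes of the tumor differ under WCE.

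Chemokines of this group carry the residues glutamate, leucine and arginine just before the first cysteines of the protein, a motif abbreviated ELR. The motif lets them bind CXCR2, and CXCL6 and CXCL8 also CXCR1, on neutrophils and related myeloid cells, which then migrate toward the source, and on endothelial cells, which respond by forming vessels. Tumor cells secrete them, and in prostate cancer they are studied for the recruitment of myeloid-derived suppressor cells and for angiogenesis. Their genes lie in 1 cluster on the long arm of chromosome 4 and are textbook targets of NFκB, a family of transcription factors that bind DNA at κB sites.

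Because NFκB is the regulator that the study discusses for these genes, the 120 bases before each ligand's start site are shown, read 5′ to 3′ on the gene's own strand from RefSeq promoters of GRCh38.p14. Capitals mark κB matches and, in CXCL8, a match to the exact TATA box letters TATAAA. The stretches lie at chr4:73740449-73740568 (plus strand) for CXCL8, chr4:73869273-73869392 (plus) for CXCL1, chr4:73836558-73836677 (plus) for CXCL6, chr4:73998678-73998797 (minus) for CXCL5, chr4:74038690-74038809 (minus) for CXCL3 and chr4:74099196-74099315 (minus) for CXCL2.
CXCL8: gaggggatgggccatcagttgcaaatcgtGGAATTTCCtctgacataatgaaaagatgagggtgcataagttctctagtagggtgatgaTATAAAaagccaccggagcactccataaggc
CXCL1: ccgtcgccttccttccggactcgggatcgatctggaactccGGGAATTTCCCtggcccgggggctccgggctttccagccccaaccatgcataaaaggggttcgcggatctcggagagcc
CXCL6: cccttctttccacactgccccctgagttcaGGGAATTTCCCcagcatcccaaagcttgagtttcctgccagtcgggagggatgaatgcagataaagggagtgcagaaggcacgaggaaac
CXCL5: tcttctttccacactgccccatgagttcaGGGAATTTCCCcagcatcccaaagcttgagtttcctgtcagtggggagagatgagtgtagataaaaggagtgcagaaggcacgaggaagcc
CXCL3: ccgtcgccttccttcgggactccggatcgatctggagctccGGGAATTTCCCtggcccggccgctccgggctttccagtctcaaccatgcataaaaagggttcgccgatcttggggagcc
CXCL2: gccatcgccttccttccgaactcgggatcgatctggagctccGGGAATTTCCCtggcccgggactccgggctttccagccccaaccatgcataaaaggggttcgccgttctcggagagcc

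All 8 genes matched a promoter of 250 bases before and 50 bases after the start site, and 5 motifs were searched there on both strands, chosen after the CXCL1 and CXCL8 promoters had been read. A 9-base κB core, GGAANTTCC, was present in 6 of 6 ligand promoters and in 0.965% of all 35116 promoters of the table. Counted from the start site, it began at position −78 in CXCL1 and CXCL3, −77 in CXCL2, −89 in CXCL6, −90 in CXCL5 and −91 in CXCL8. The letters were GGAATTTCC in every ligand. The CXCL1 and CXCL8 matches were known when the motif was chosen, and some ligand promoters are near copies of each other. The 6 matches are therefore not independent of each other or of that choice. The longer 10-base κB consensus, which overlaps this core, matched in CXCL1, CXCL2, CXCL3, CXCL5 and CXCL6, where the core is preceded by a further G, and not in CXCL8, against 5.91% of all promoters. CXCL8 alone of the 6 ligands held the AP-1 motif TGANTCA, the site of JUN and FOS proteins (7.71% of all promoters). It was also the only ligand with the exact TATA box letters TATAAA (11.5% of all promoters). No variant of these letters was searched, and the other ligands show ATAAA close to the same place. The GC box GGGCGG was found in CXCL1, CXCL3 and CXCL6, against 45.0% of all promoters. None of the 5 motifs was found in the CXCR1 or CXCR2 window. A match describes letters and not a bound site.

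**Figure D1:**
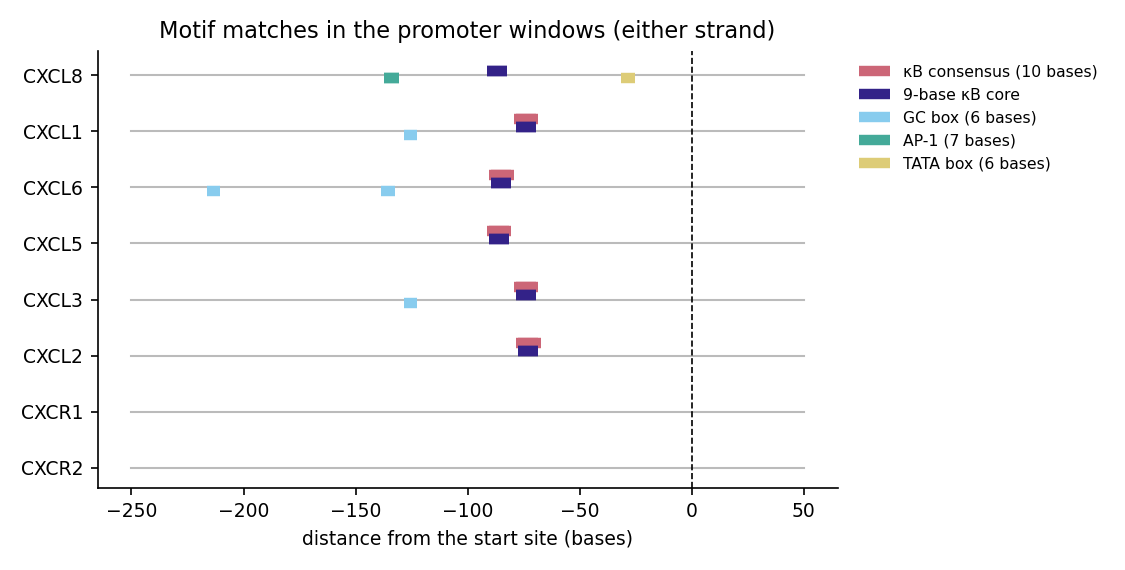
Motif matches in the promoter windows of the 8 genes, with the distance from the start site in bases on the horizontal axis and 1 line per gene. The κB cores of the 6 ligands begin between positions −91 and −77, and the receptor windows hold no match.

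In these 120 bases the ligands fell into 3 kinds. Compared without gaps after a shift of at most 5 bases, CXCL5 and CXCL6 were identical at 110 of 119 positions (92.4%) and CXCL1 and CXCL3 at 109 of 120 (90.8%). CXCL1 and CXCL2 matched at 67.5%, a value that the comparison without gaps lowers. Their κB cores begin at −78 and −77 although the bases next to the start site line up. No single shift therefore aligns the whole stretch, and 67.5% understates their likeness. CXCL8 was identical to any other ligand at 30.0% to 33.1%. Messenger RNAs of the close relatives also share sequence, which matters for how reads are assigned. Of the 50-base words of the GENCODE 29 transcripts, 5.73% of those of CXCL1 also occurred in CXCL2 and 0.573% in CXCL3, and 5.26% of those of CXCL3 occurred in CXCL2. CXCL5, CXCL6 and CXCL8 shared no 50-base word with another ligand studied. Values of CXCL1, CXCL2 and CXCL3 may therefore include a small number of each other's reads.

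The authors deposited FPKM, which is the number of fragments divided by transcript length and by the mapped total, so levels can be compared between genes. No read counts were analysed here and the depth is known only relative to vehicle replicate 3. It was 64.8% and 75.4% in the other vehicle-treated tumors, 85.2% and 80.1% in WCE replicates 2 and 3, and 25.0% in WCE replicate 1. The last of these and vehicle replicate 3 could hardly be told apart in their values. Their median absolute difference was 0.028 on the log2 scale over 1915 entries averaging 50 FPKM or more, against 0.095 to 0.247 for the other 14 pairs, and of 15805 entries with a value in WCE replicate 1, 0 lacked one in vehicle replicate 3. They may be 1 library under a pair of labels, which these values do not settle, so that n = 3 counts libraries as labeled. Since they carry different treatments, both were kept as labeled, and fold changes of the ligands and of the genes with an unadjusted p under 0.05 are also given without them. Correlations and likeness were computed with both. For the labeled cell type, the epithelial keratin genes KRT8, KRT18 and KRT19 had mean levels of 228, 292 and 535 FPKM. The androgen-regulated prostate genes KLK2 and KLK3 were listed at 0 in all 6 tumors.

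CXCL8, CXCL1 and CXCL6 were among the more abundant transcripts of the tumors, and CXCL8 ranked 446th of all entries by mean FPKM, CXCL1 613th and CXCL6 740th. The mean level over the 6 tumors was 198 FPKM for CXCL8, 144 FPKM for CXCL1, 122 FPKM for CXCL6, 54.4 FPKM for CXCL5, 24.7 FPKM for CXCL3 and 17.3 FPKM for CXCL2. CXCL8 was above CXCL1 in 6 of 6 tumors, by 1.17 to 1.46 times, although their ranges over the tumors overlapped. CXCL1 and CXCL6 could not be ordered in every tumor, since CXCL6 was marginally higher in WCE replicate 2 (103 against 102 FPKM). CXCL6 and CXCL5 were the neighbors in this order whose ranges did not overlap, with CXCL6 higher by 1.53 to 4.12 times. CXCL5 exceeded CXCL3, and CXCL3 exceeded CXCL2, in 6 of 6 tumors with overlapping ranges.

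**Figure D2:**
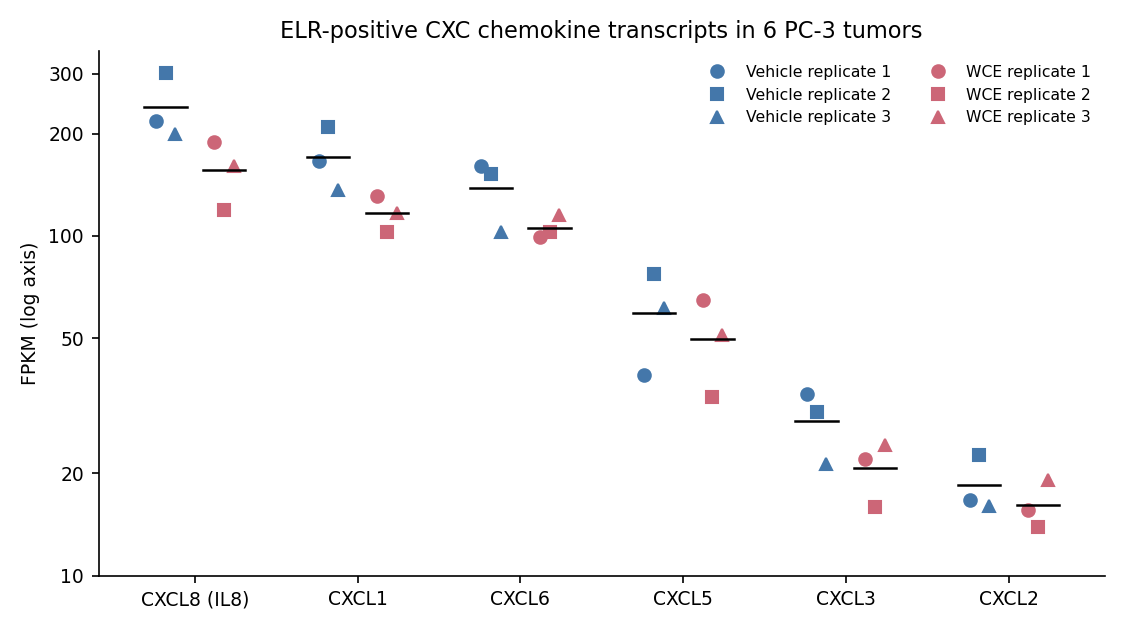
FPKM of the 6 ligands on a log axis in each of the 6 tumors, blue for vehicle-treated and red for WCE-treated, with symbols for the replicate and a black line at each group mean (n = 3). CXCL8 and CXCL1 are the ligands whose red points all lie below the blue ones, and vehicle replicate 3 and WCE replicate 1 lie close together for every ligand.

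All 6 ligands had a lower mean log2(FPKM + 1) in WCE-treated than in vehicle-treated tumors, with log2 fold changes from −0.61 in CXCL8 to −0.17 in CXCL2, where 51.4% of all 13287 entries tested were lower. The median log2 fold change of the ligands was −0.40, against −0.0063 for all entries. In the comparison with limma over all entries, 0 of the 6 passed an adjusted p of 0.05 (background 0.00753%), and 2, CXCL1 and CXCL8, had an unadjusted p under 0.05 with a lower level (background 3.33%), while 0 had one with a higher level (background 3.78%). The same 2 ligands were those whose groups did not overlap (background 6.40% for lower and 6.37% for higher entries). CXCL1, CXCL5 and CXCL8 were singled out by the study from these same tumors, and their place in the list is no independent evidence of its direction. The study also reported these chemokines lower under WCE by qRT-PCR in PC-3 tumors and in tumors of DU145, another prostate cancer line. It reported lower CXCL1 and CXCL8 by staining and lower CXCL1 in plasma, and those measurements were not analysed here. The receptors were not tested, because their mean was under 0.5 FPKM. Less RNA per cell and fewer of the cells that make it cannot be told apart in RNA from whole tumors.

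CXCL8, a strong neutrophil attractant and the ligand with the highest level, measured 218, 301 and 199 FPKM under vehicle and 189, 120 and 161 FPKM under WCE. The groups did not overlap, and the smallest gap, 199 against 189 FPKM, lay between the nearly identical libraries. The margin over all 6 values is therefore the small difference within that pair. Without the pair the groups of CXCL8 did not overlap either (background 27.8%). The mean of WCE-treated tumors was 34.7% lower (240 ± 54.0 against 157 ± 35.0 FPKM, SD, n = 3 each). Its log2 fold change on the log2(FPKM + 1) scale was −0.61 ± 0.21 (standard error, SE, with unadjusted p = 0.0199, adjusted p = 0.623 by limma). An exact permutation test gave a two-sided p of 0.1, the smallest that 3 against 3 tumors allow. Leaving out vehicle replicate 2 gave a log2 fold change of −0.44 (unadjusted p = 0.0691 by limma), and leaving out WCE replicate 2 gave −0.43 (unadjusted p = 0.0624 by limma).

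CXCL1, first described as a melanoma growth-stimulating factor, measured 167, 210 and 136 FPKM under vehicle and 131, 102 and 117 FPKM under WCE. The order of the 6 tumors was the same as for CXCL8, and the smallest gap between the groups again lay between vehicle replicate 3 and WCE replicate 1. Without that pair the groups of CXCL1 did not overlap either (background 27.8%). The mean was 31.7% lower under WCE (171 ± 37.0 against 117 ± 14.2 FPKM, SD, n = 3 each), at −0.53 ± 0.17 (SE) on the log2 scale (unadjusted p = 0.0154, adjusted p = 0.623 by limma, exact permutation p = 0.1). Without WCE replicate 2 the unadjusted p by limma was 0.0528 and the log2 fold change −0.44. The level of CXCL8 relative to CXCL1 varied little, from 1.17 in WCE replicate 2 to 1.46 in vehicle replicate 3.

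CXCL6, a granulocyte attractant that binds both receptors, measured 160, 152 and 103 FPKM under vehicle and 99.1, 103 and 115 FPKM under WCE. Vehicle replicates 1 and 2 stood above the other 4 tumors, and vehicle replicate 3 fell within the WCE-treated range. On the log2 scale it differed by −0.37 ± 0.17 (SE, with unadjusted p = 0.0700 by limma, exact permutation p = 0.2). Without vehicle replicate 3 it was −0.56, with an unadjusted p of 0.00169 and an adjusted p of 0.314 by limma.

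CXCL3, a CXCR2 ligand closely related to CXCL1, measured 34.3, 30.3 and 21.3 FPKM under vehicle and 22.1, 16.0 and 24.3 FPKM under WCE. It had the pattern of CXCL6, with vehicle replicates 1 and 2 highest and vehicle replicate 3 inside the WCE-treated range. Its log2 fold change was −0.44 ± 0.21 (SE, with unadjusted p = 0.0705 by limma, exact permutation p = 0.3), and without vehicle replicate 3 it was −0.63 (unadjusted p = 0.0134 by limma). Without WCE replicate 3 the unadjusted p by limma was 0.0492 at −0.56.

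CXCL5, an attractant made by epithelial cells, measured 38.9, 77.1 and 61.4 FPKM under vehicle and 64.6, 33.5 and 50.9 FPKM under WCE. The groups overlapped widely, with vehicle replicate 1 lower than 2 of the 3 WCE-treated tumors, and the ratio between the highest and the lowest tumor was 2.30. The log2 fold change of −0.24 was smaller than its error, 0.30 (unadjusted p = 0.441 by limma, exact permutation p = 0.6). Leaving out WCE replicate 2 brought it to 0.011, and leaving out vehicle replicate 1 to −0.51, with unadjusted p = 0.968 and 0.101 by limma.

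CXCL2, the closest relative of CXCL1 and CXCL3 and the ligand with the lowest level, measured 16.7, 22.6 and 16.0 FPKM under vehicle and 15.6, 13.9 and 19.1 FPKM under WCE. WCE replicate 3 was the second highest of the 6 tumors, so the groups overlapped. Its log2 fold change of −0.17 was about the size of its error, 0.16 (unadjusted p = 0.322 by limma, exact permutation p = 0.4). In the fits that left out 1 tumor it ranged from −0.29 to −0.026. The level of CXCL1 relative to CXCL2 was 9.97, 9.28 and 8.49 in vehicle-treated and 8.40, 7.35 and 6.13 in WCE-treated tumors, and this difference was not tested.

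Without the pair of nearly identical libraries, vehicle replicate 3 and WCE replicate 1, each ligand lay further below 0 than with all 6 tumors. The log2 fold change was −0.88 for CXCL8, −0.77 for CXCL1, −0.68 for CXCL3, −0.52 for CXCL6, −0.40 for CXCL5 and −0.24 for CXCL2. In this comparison of 2 tumors with 2, CXCL8, CXCL1, CXCL3 and CXCL6 had an unadjusted p under 0.05 by limma with a lower level (4 of 6, background 9.63%), and the same 4 had groups that did not overlap (background 27.8%). Their adjusted p by limma lay between 0.165 and 0.210, and 0 of the 6 ligands passed the adjusted threshold (background 0.0377%). Between the 2 libraries themselves no ligand differed by more than 0.076 on the log2 scale.

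**Figure D3:**
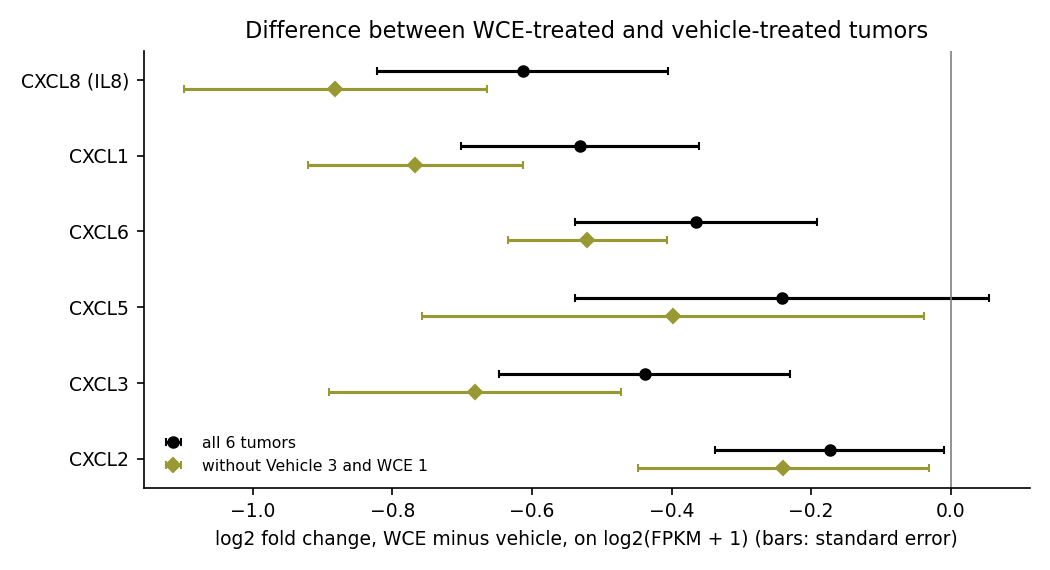
Log2 fold change of each ligand, WCE minus vehicle, on the log2(FPKM + 1) scale with its standard error from limma, in black for all 6 tumors and in olive without vehicle replicate 3 and WCE replicate 1. The points run from −0.17 in CXCL2 to −0.61 in CXCL8 with all tumors, and from −0.24 to −0.88 without the 2 libraries.

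The 6 ligands summed to 635, 793 and 537 FPKM under vehicle and to 521, 388 and 487 FPKM under WCE. These sums did not overlap, and they met at 537 and 521 FPKM in the nearly identical libraries. Without that pair the mean sum was 714 FPKM under vehicle and 438 FPKM under WCE. The share of each ligand in the sum was taken within each tumor. CXCL8 gave 34.4%, 37.9% and 37.1% of it in vehicle-treated and 36.3%, 30.8% and 33.0% in WCE-treated tumors. CXCL1 stayed between 24.0% and 26.5% in all 6 tumors. CXCL6 gave 19.0% to 26.4% and CXCL5 6.12% to 12.4%, and the tumors with the lowest share of CXCL5, vehicle replicate 1 and WCE replicate 2, were those with the highest share of CXCL6. CXCL3 gave 3.82% to 5.39% and CXCL2 2.63% to 3.92%.

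**Figure D4:**
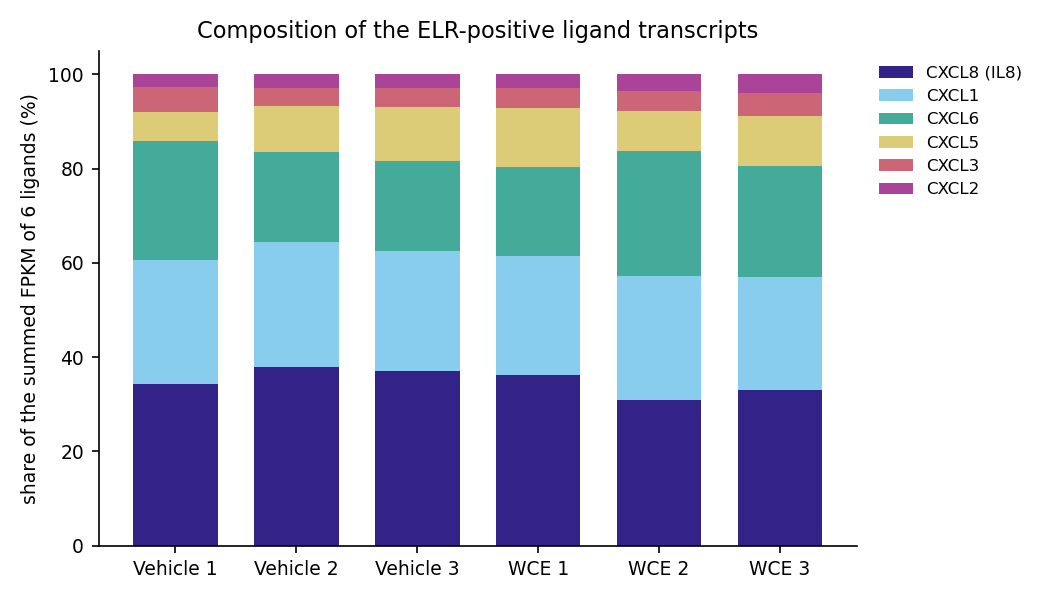
Share of each ligand in the summed FPKM of the 6 ligands, in percent, as a stacked bar for each tumor. CXCL8, CXCL1 and CXCL6 make up most of every bar, and CXCL5 is smallest in vehicle replicate 1, at 6.12%.

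Across the 6 tumors CXCL1 and CXCL8 ran most closely together (Pearson r of log2(FPKM + 1) 0.970), followed by CXCL3 and CXCL6 (0.888), while CXCL5 and CXCL6 did not (0.036). These values describe 6 tumors of which 2 are nearly identical, and they include the difference between the groups. Among 6886 entries with a mean of at least 10 FPKM, likeness to CXCL1 was measured as the root mean square difference of the log2 profile, centered on its mean over the 6 tumors. The 3 closest entries were ZNF593 (0.0934), C17orf79 (0.0970) and GSTO2 (0.101), and CXCL8 was the 7th at 0.113. Close to CXCL8 were CLDN7 (0.112) and CXCL1 (0.113). In likeness to CXCL1, CXCL3 ranked 194th, CXCL6 209th, CXCL2 542nd and CXCL5 3630th.

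In the deposited table the cluster runs on chromosome 4 from CXCL8 at 74606223 to 74609433, over CXCL6 at 74702273 to 74704477, CXCL1 at 74735109 to 74737019, CXCL5 at 74861359 to 74864416 and CXCL3 at 74902312 to 74904490, to CXCL2 at 74962754 to 74964997. Of the builds in the submitters' processing notes, hg19 is the human one, and positions are counted from 1. No member's locus overlapped another entry. The span of 358775 bases also holds PF4V1, PF4, PPBP and PPBPL2, and MTHFD2L is the only further entry within 100 kb of it. PF4, a platelet chemokine without the ELR motif, measured 1.97, 2.67 and 1.97 FPKM under vehicle and 1.44, 0.636 and 0.908 FPKM under WCE. Its groups did not overlap either, at a log2 fold change of −0.70 ± 0.18 (SE, with unadjusted p = 0.00545, adjusted p = 0.623 by limma). With a pseudocount of 0.1 in place of 1 its log2 fold change was −1.13, and without the nearly identical libraries it was −0.90. Of the 50-base words of its transcripts 13.7% also occur in PF4V1, whose level was under 0.6 FPKM in each tumor. PPBP, the platelet precursor of another ELR-positive ligand, ranged from 2.40 to 9.55 FPKM, and its log2 fold change was 0.26 ± 0.45 (SE, with unadjusted p = 0.582 by limma) and 0.24 without the nearly identical libraries. MTHFD2L, a mitochondrial folate enzyme beside the cluster, was at −0.016 ± 0.17 (SE, with unadjusted p = 0.931 by limma).

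**Figure D5:**
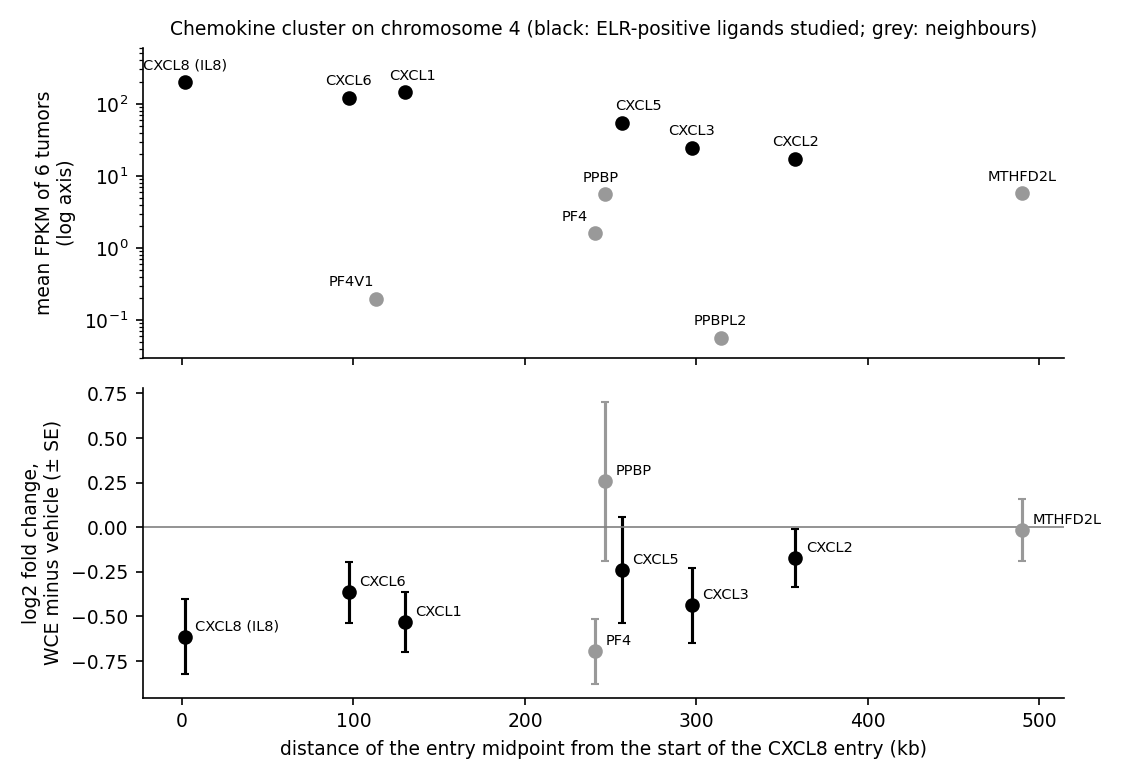
Entries of the chromosome 4 cluster by the distance of their midpoint from the start of the CXCL8 entry in kb, with the mean FPKM of 6 tumors on a log axis above and the log2 fold change (WCE minus vehicle) with its standard error from limma below. Black points are the 6 ligands and grey points their neighbors, of which PF4V1 and PPBPL2 were too low to be tested.

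Transcripts of the receptors were close to absent. CXCR1, on chromosome 2 from 219027568 to 219031716, was listed at 0 in all 6 tumors. CXCR2, from 218990013 to 219001976 on the same chromosome, was at 0.0186 and 0.0743 FPKM in vehicle replicate 3 and WCE replicate 1 and was listed at 0 for the remaining 4 tumors. The ratio of these values was 3.99, and 1 read is worth 4.00 times as much in WCE replicate 1 as in vehicle replicate 3, so both values stand for the same number of reads. Human CXCR2 was therefore not detectable at this depth in 4 tumors, and its difference between the groups cannot be read. Receptors on mouse cells of the host were not analysed here.

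Human genes used as markers of cell types differed widely in level. PC-3 cells were the human cells implanted and the host was a mouse, so the sums do not measure host leukocytes, vessels or fibroblasts. Which cells or reads gave these values was not tested. Of 12 granulocyte markers, 3 passed the filter. CSF3R, the receptor of the granulocyte growth factor, was listed at 0 in all 6 tumors, and MPO and CEACAM8, proteins of neutrophil granules and membranes, had means of 0.0039 and 0.0043 FPKM. S100A8 and S100A9, calcium-binding proteins that are abundant in neutrophils, had means of 132 and 932 FPKM and made up most of the list, whose sum ranged from 342 to 1559 FPKM in vehicle-treated and from 543 to 1557 FPKM in WCE-treated tumors. Of 7 macrophage markers, 1, CD68, passed the filter, and TYROBP was at 0 throughout. The list summed to 25.5 to 41.1 FPKM in vehicle-treated and 40.1 to 44.3 FPKM in WCE-treated tumors. The 8 endothelial markers, of which 4 passed, summed to 2.85 to 6.89 and 6.50 to 11.9 FPKM. KDR and TIE1, vascular receptors, had log2 fold changes of 1.14 and 0.77 (unadjusted p = 0.0345 and 0.0392 by limma). Without WCE replicate 3 KDR was at 0.60 (unadjusted p = 0.0557 by limma). TIE1 was at 0.49 when WCE replicate 2 was left out (unadjusted p = 0.12 by limma). CDH5, a defining endothelial cadherin, had a mean of 0.034 FPKM. The 6 fibroblast markers, of which 3 passed, summed to 42.1 to 56.4 and 12.8 to 55.9 FPKM, and LUM, a matrix proteoglycan, had a log2 fold change of −0.85 (unadjusted p = 0.0308 by limma), which was −0.54 without vehicle replicate 1 (unadjusted p = 0.0908 by limma). All 6 genes listed as markers of PC-3 cells passed, and the list summed to 1525 to 1946 and 1723 to 1876 FPKM. EPCAM, an adhesion molecule, had a log2 fold change of −0.73 (unadjusted p = 0.00889 by limma). KRT8, KRT18 and VIM were at 0.050, 0.10 and 0.41, and KRT19 and CD44 at −0.014 and −0.032. The median log2 fold change of this list was 0.018. Of the 5 prostate luminal markers 2 passed the filter, and the list summed to 12.4 to 24.1 and 24.9 to 27.4 FPKM. The part of these differences in the chemokine results was not tested. Each of KDR, TIE1, LUM and EPCAM had an adjusted p of 0.623 by limma, and without the nearly identical libraries their log2 fold changes were 1.69, 1.15, −1.31 and −1.08.

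Downstream of the receptors, 23 of 27 signaling genes passed the filter, and none had an adjusted p under 0.05 by limma. At an unadjusted p under 0.05, against a background of 7.10% in either direction, SRC, a tyrosine kinase, had a log2 fold change of 0.28 (unadjusted p = 0.0381 by limma). GNAI1, an inhibitory G protein subunit, had one of −0.25 (unadjusted p = 0.0486 by limma). Without the nearly identical libraries these were 0.40 and −0.37. SRC was no longer under 0.05 in 6 of 15 alternative analyses, such as upper-quartile scaling (unadjusted p = 0.0814 by limma), and GNAI1 in 8. The median log2 fold change of the list was 0.027. PLCB2, PIK3CG and PIK3R5, through which these receptors signal in leukocytes, had means of at most 0.0901 FPKM, whereas GNB1, RAC1 and CDC42, which most cells express, had means of 243, 220 and 181 FPKM.

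Surface molecules that bind chemokines without this signaling numbered 9, of which 7 passed the filter. DARC, the scavenging receptor for ELR-positive ligands on red and endothelial cells, had a mean of 0.0074 FPKM. SDC1 and SDC4, heparan sulfate proteoglycans that hold chemokines at the cell surface, had means of 373 and 146 FPKM. SDC3, of the same family, had a log2 fold change of 0.47 (unadjusted p = 0.0340, adjusted p = 0.623 by limma). It was 0.70 without the nearly identical libraries and 0.28 without vehicle replicate 2 (unadjusted p = 0.0958 by limma). Of 12 proteases that cut chemokines, 6 passed the filter, and none of these had an unadjusted p under 0.05 (background 7.10% in either direction). The median log2 fold change of the proteases was −0.23, against −0.0063 for all entries. Of the neutrophil proteases, CTSG was listed at 0 in all 6 tumors and ELANE had a mean of 0.013 FPKM.

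Upstream, 14 of 18 genes of the interleukin 1, tumor necrosis factor, interleukin 17 and Toll-like receptor pathways passed the filter. HMGB1, a chromatin protein that acts as an alarm signal outside the cell and whose gene has many pseudogenes, had a log2 fold change of −0.44 (unadjusted p = 0.0226, adjusted p = 0.623 by limma) and of −0.67 without the nearly identical libraries. Its unadjusted p by limma was 0.0614 without vehicle replicate 1, at −0.32. IL1B, a strong inducer of these chemokines, had a mean of 56.0 FPKM under vehicle and 43.2 FPKM under WCE (unadjusted p = 0.263 by limma). TNF had a mean of 0.456 FPKM and IL17A was listed at 0 in all 6 tumors. All 22 genes of the transcription factors and messenger RNA decay factors that act on these chemokines passed the filter. None of these 22 had an unadjusted p under 0.05 by limma (background 7.10% in either direction). The median log2 fold change was −0.019 for the inducers and −0.083 for the regulators. FOSL1, an AP-1 subunit, had the highest level of the latter at 221 FPKM.

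Chemokines of the same CXC family without the ELR motif were sparser. Of 8, CXCL12 was listed at 0 in all 6 tumors and 3 passed the filter. CXCL10 and CXCL11, which share a locus entry and act on CXCR3 of T cells, had log2 fold changes of −0.29 and −0.18 (unadjusted p = 0.668 and 0.752 by limma). CXCL16, a membrane-bound ligand of CXCR6, had a log2 fold change of −0.16 (unadjusted p = 0.297 by limma). Their median was −0.18, against −0.40 for the ELR-positive ligands, and the difference between the groups of chemokines was not tested.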

How the data were processed

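The 6 tumors were grouped by sample title, and columns were matched through the sample descriptions. The deposited values are FPKM per gene, computed by the authors, in a format that Cufflinks writes. The submitters' processing notes name TopHat2 2.0.13, Cufflinks, hg19 and mm10 without roles, and whether reads of the mouse host were removed is not stated. How the authors scaled tumors to each other is not given in the sources used here.

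Members and lists were chosen with earlier results of these data known. Members were matched by symbol, entries on alternative haplotypes were skipped, and joined entries were split. Values were changed to log2(FPKM + 1), and 13287 of 24000 entries with a mean of at least 0.5 FPKM entered a two-sided limma comparison (version 3.58.1, R 4.3.3) that lets the prior variance follow the mean level, with Benjamini-Hochberg adjustment over all of them and a threshold of 0.05. The limma p-values rest on the spread between libraries, counted as separate tumors as labeled, and on a variance shared across entries. The nearly identical pair may not meet that count. The comparison was also run on simulated independent tumors without a nearly identical pair, with no change or with changes larger than those of the ligands. Its outcome is not reported here and is no check on the ligand values.

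Named genes were the 8 members, entries within 100 kb of the cluster, the 3 closest profiles of CXCL1 and CXCL8, and in each list genes under an unadjusted p of 0.05, those of highest level and those of largest change. Genes at or near 0 in a list were named after their values were seen. Some results under this rule are not reported here. Relative depth came from the commonest ratio of low values. Promoters came from RefSeq (GRCh38.p14) and transcripts from GENCODE 29. Python 3.11.15, numpy 2.4.6, pandas 2.3.3, scipy 1.17.1 and matplotlib 3.10.9 were used. Alternatives were the pseudocount (0.1), the filter, 3 scalings, an unmoderated test, array weights, a replicate block, each tumor left out, and both nearly identical libraries left out.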

Additional observations from a re-analysis of the deposited data

How the results depend on the processing

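No member passed the adjusted threshold in any of the 15 alternatives. The number of members with an unadjusted p under 0.05 was 2 with the design as given, 4 with upper-quartile scaling and without the nearly identical libraries, 1 with no filter on low values, 1 with the replicate block, 0 with the unmoderated test, and 0 to 4 when 1 tumor was left out (0 without WCE replicate 2, 1 without vehicle replicate 2, 3 without WCE replicate 3 and 4 without vehicle replicate 3). The same settings had 244 of 13283, 378 of 13288, 228 of 13271 and 1769 of 13278 entries under that p. CXCL1, CXCL2, CXCL3, CXCL6 and CXCL8 were lower in WCE-treated tumors in all 15, with ranges over single left-out tumors of −0.68 to −0.37, −0.29 to −0.026, −0.63 to −0.27, −0.56 to −0.25 and −0.76 to −0.43. CXCL5 ranged from −0.51 to 0.011. CXCL10 ranged from −0.99 to 0.090, CXCL11 from −0.80 to 0.21, PPBP from −0.089 to 0.68 and MTHFD2L from −0.13 to 0.14, with MTHFD2L at 0.00040 under array weights and at 0.043 without both libraries. PF4 kept its direction and its unadjusted p under 0.05 in all 15. Of the other genes named for such a p, KDR, TIE1, LUM, SDC3 and SRC each lost it in 6 of the 15, GNAI1 in 8, HMGB1 in 5 and EPCAM in 1, and none changed direction.

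Over all entries, 944 had an unadjusted p under 0.05, of which 46.8% were lower, and 1 an adjusted one. Upper-quartile scaling gave 922, of which 76.4% were lower. The unmoderated test gave 593 and array weights 3201. Without the nearly identical libraries 2459 had an unadjusted and 5 an adjusted p under 0.05. No filter and the unmoderated test each left 0 past the adjusted threshold, with 1051 and 593 at an unadjusted p under 0.05. Leaving out 1 tumor gave 228 to 2035 unadjusted and 1 to 7 adjusted, with the extremes of the former without WCE replicates 3 and 1. The cause was not tested.

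With the replicate block, CXCL8 had an unadjusted p of 0.0541, and 1049 entries had one under 0.05. No label ties same-numbered tumors to each other, and after subtracting group means such pairs correlated at −0.24, 0.16 and −0.093, with 2 of 6 tumors correlating best with their own number, so the numbers were not taken to pair the tumors. With 3 tumors a group and a single shallow library, differences of the size of CXCL2 and CXCL5 lie within the spread between tumors, and the receptors are below what these libraries can measure.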
